A study of Sus scrofa with 10 samples.

Results

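The liver enzymes that break tryptophan down through kynurenine were followed in pig liver as the genes TDO2, KMO, KYNU, AFMID, HAAO, ACMSD and QPRT. These 7 genes were chosen by name, and 5 of them, TDO2, KMO, KYNU, ACMSD and QPRT, were matched among the 25009 Ensembl identifiers of the expression table. No row could be matched to AFMID or HAAO, so neither is analysed here. The study measured RNA of 10 liver samples from male pigs with a phenotype label of high (5 samples) or low (5 samples) growth and fatness, all labelled with an age of 175 without a unit. The labels give no breed, diet or treatment. They leave unsaid whether every sample is a different animal, and the p-values therefore speak only of the variation among these 10 samples.

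Tryptophan that is not built into protein is broken down mainly in the hepatocyte. TDO2, a heme enzyme that glucocorticoids and tryptophan itself induce in rat liver, opens the indole ring, and AFMID turns the product into kynurenine. KMO hydroxylates kynurenine at the outer mitochondrial membrane, KYNU cleaves the side chain with vitamin B6 as cofactor, and HAAO opens the second ring. The product of HAAO stands at a branch. ACMSD sends it towards full oxidation through glutaryl-CoA, while the part that escapes ACMSD closes to quinolinate, from which QPRT makes a precursor of NAD.

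None of the 5 genes differed between high and low beyond the spread between samples. TDO2, KMO, KYNU and ACMSD had the higher mean in low and QPRT was nearly level. KMO came nearest to a difference, with group means of 58.4 ± 16.1 RPKM (high) and 82.1 ± 18.5 RPKM (low; SD, n = 5 each). RPKM is a read count divided by the length of the gene and by the mapped reads of its library. In limma 0 of the 5 genes passed an adjusted p of 0.05, and neither did any of the 10931 genes tested (0 genes, 0%), of which 497 had an unadjusted p under 0.05. KMO alone had an unadjusted p under 0.05 in limma, against 4.55% of all tested genes. On the log2(RPKM + 1) scale 4 of the 5 genes had the higher mean in low, against 51.2% of all tested genes, and the median difference (high minus low) was -0.29, against -0.005 over all tested genes. In 0 of the 5 genes were the groups free of overlap, against 0.805% of all tested genes.

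**Figure D1:**
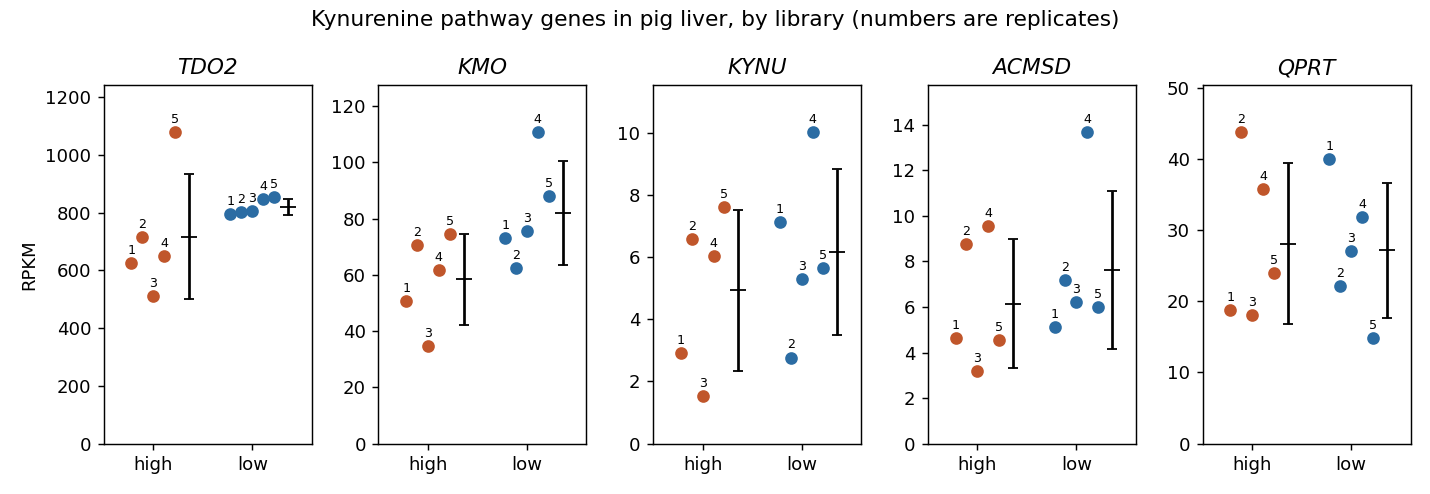
RPKM (vertical axes, from 0, a separate scale for each gene) of TDO2, KMO, KYNU, ACMSD and QPRT in each high and low library. Points are libraries with their replicate number, and the bar beside them is the group mean with its SD (n = 5). The 5 low libraries lie between 794 and 855 RPKM for TDO2, while the high libraries run from 513 to 1081.

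The libraries were of like depth and held the RNA of hepatocytes. Relative depth, read from the smallest steps of the values, spanned a 1.41-fold range, while depth in reads is unknown. The albumin gene ALB, the defining hepatocyte marker, had 22920 to 52030 RPKM. Of the 9 markers of Kupffer cells and macrophages, 5 were matched and none was at 0 throughout. These cells can also make KMO and KYNU. The summed RPKM of the 5 markers was 340 to 388 in high and 297 to 551 in low, and their mean level was 5.31 ± 0.121 and 5.52 ± 0.195 on the log2(RPKM + 1) scale (SD, n = 5 each). The exact two-sided permutation p was 0.0794 for this level, the same as for 5 matched markers of T and NK cells (adjusted p = 0.278 over 7 cell types). In tissue samples fewer cells of a type and less RNA per cell cannot be told apart. High replicates 1 and 5 carried brain transcripts, with summed levels of the 4 matched markers of up to 9.07 RPKM in high against at most 0.97 in low, and the differences below are also given without them where that moved them by over 1.5 times. The labels do not tell which libraries shared a lane.

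The first enzyme gene was by far the most abundant of the pathway. Over the 10 libraries TDO2 had a mean of 769 ± 155 RPKM (SD), a level above that of 99.2% of the tested genes. KMO followed with 70.2 ± 20.6 RPKM and QPRT with 27.6 ± 9.85. ACMSD had a median of 6.10 RPKM and KYNU of 5.84. RPKM is scaled to gene length, so these levels can be set side by side.

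The order held in most libraries. TDO2 was above KMO in 10 of 10 libraries, by 7.64- to 14.8-fold, and the ranges of both genes lay apart. KMO was above QPRT in 10 of 10 libraries, by 1.61- to 5.92-fold, although the ranges of these genes overlapped. QPRT was above ACMSD in 10 of 10 libraries, by 2.33- to 7.83-fold, with the ranges apart. ACMSD was above KYNU in 8 of 10 libraries, with a ratio of 0.599 to 2.59, so their levels did not differ beyond the spread.

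TDO2 (ENSSSCG00000008868), the tryptophan dioxygenase, had an even level in low and an uneven one in high. Its RPKM was 627, 716, 513, 651 and 1081 in high replicates 1 to 5 and 794, 803, 806, 847 and 855 in low replicates 1 to 5. In 4 of the 5 high libraries TDO2 lay below every low library, and high replicate 5 lay above all of them, so the groups overlapped. The coefficient of variation of TDO2 was 30.1% in high and 3.40% in low. On the log2(RPKM + 1) scale its SD was 0.396 in high and 0.0487 in low, a ratio of 8.14. Among the 10931 tested genes 6, TDO2 included, had a ratio at least this large (0.0549%). This measure was chosen after the values were seen, and the difference in spread was not tested. Without high replicate 5 the ratio was 4.15, which 0.393% of the tested genes reached.

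The mean of TDO2 did not differ between the groups beyond the spread between samples. High averaged 718 ± 216 RPKM and low 821 ± 27.9 RPKM (SD, n = 5 each). The log2 difference (high minus low) was -0.24 (SE 0.18, adjusted p = 0.961 in limma). The 95% interval allows a level in low from 0.893 to 1.56 times that in high. Without high replicate 5 the log2 difference was -0.40 (adjusted p = 0.959 in limma), and without both high replicates 1 and 5 it was also -0.40. Without high replicate 3 it was -0.13.

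KMO (ENSSSCG00000025686), the kynurenine monooxygenase, had the lowest p of the 5 genes. Its RPKM was 50.7, 70.5, 34.7, 61.7 and 74.6 in high replicates 1 to 5 and 73.1, 62.4, 75.7, 111 and 88.2 in low replicates 1 to 5. High replicates 1, 3 and 4 lay below every low library and low replicates 3, 4 and 5 above every high library, while the other 4 libraries overlapped. The log2 difference (high minus low) was -0.51 (SE 0.22), with an unadjusted p of 0.0424 and an adjusted p of 0.961 in limma. The interval allows a level in low from 1.01 to 1.99 times that in high. The difference did not pass over all genes, and when each library was left out in turn the unadjusted p ran from 0.0235 to 0.103 in limma.

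KYNU (ENSSSCG00000015673), the kynureninase, varied most among the libraries. Its RPKM was 2.90, 6.58, 1.52, 6.04 and 7.61 in high replicates 1 to 5 and 7.12, 2.77, 5.29, 10.03 and 5.64 in low replicates 1 to 5. Its highest value was 6.60 times its lowest, and its SD over the 10 libraries on the log2(RPKM + 1) scale was above that of 94.7% of the tested genes, where TDO2 stood at 60.6%. High replicates 1 and 3 and low replicate 2 were the 3 lowest libraries, so both groups held low values. The log2 difference (high minus low) was -0.33 (SE 0.36, adjusted p = 0.968 in limma), and the interval allows a level in low from 0.721 to 2.19 times that in high. Without high replicate 3 the log2 difference was -0.05, and without low replicate 2 it was -0.54.

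At the branch, ACMSD (ENSSSCG00000015699), which decarboxylates the shared intermediate, had 4.62, 8.75, 3.18, 9.57 and 4.56 RPKM in high replicates 1 to 5. In low replicates 1 to 5 it had 5.10, 7.18, 6.21, 13.7 and 5.99 RPKM. Low replicate 4 stood above all other libraries, and high replicates 1, 3 and 5 below all low libraries. The log2 difference (high minus low) was -0.29 (SE 0.30, adjusted p = 0.965 in limma), and the interval allows a level in low from 0.779 to 1.92 times that in high. The log2 difference was -0.08 without low replicate 4 and -0.12 without high replicates 1 and 5.

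QPRT (ENSSSCG00000027454), which turns quinolinate into the NAD precursor nicotinic acid mononucleotide, showed the least difference. Its RPKM was 18.8, 43.8, 18.1, 35.7 and 24.0 in high replicates 1 to 5 and 39.9, 22.1, 27.0, 31.9 and 14.9 in low replicates 1 to 5. Both groups spread over nearly the same range. The log2 difference (high minus low) was 0.03 (SE 0.30, adjusted p = 0.999 in limma), and the interval allows a level in low from 0.623 to 1.53 times that in high. Without high replicates 1 and 5 the log2 difference was 0.23. Its sign changed when high replicate 2 or 4 or low replicate 2 or 5 was left out.

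The balance between steps was read as the ratio of their RPKM within each library. QPRT exceeded ACMSD everywhere, and the ratio of ACMSD to QPRT was 0.246, 0.200, 0.176, 0.268 and 0.190 in high replicates 1 to 5. In low replicates 1 to 5 it was 0.128, 0.325, 0.230, 0.429 and 0.402. The low libraries thus held both the lowest and the 3 highest ratios. The mean log2 ratio of high was -2.23 ± 0.257 and that of low -1.85 ± 0.718 (SD, n = 5 each; exact permutation p = 0.278, two-sided, adjusted p = 0.417 over 3 ratios). Without low replicate 1 the difference grew from -0.38 to -0.66 (exact permutation p = 0.0397, adjusted p = 0.119). It shrank to -0.22 without low replicate 4 (exact permutation p = 0.516) and to -0.25 without low replicate 5 (exact permutation p = 0.492).

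The remaining ratios did not pass either. KMO reached 0.0676 to 0.131 of the level of TDO2, with the highest ratio in low replicate 4 and the lowest in high replicate 3. Its mean log2 ratio to TDO2 was -3.62 ± 0.251 for high and -3.35 ± 0.275 for low (SD, n = 5 each; exact permutation p = 0.151, adjusted p = 0.417). KMO exceeded KYNU by 9.80- to 22.8-fold, with mean log2 ratios of 3.74 ± 0.547 and 3.83 ± 0.450 (exact permutation p = 0.825, adjusted p = 0.825). The ratio of KMO to KYNU was highest in high replicates 1 and 3 and low replicate 2. These libraries had the least KYNU, which is the denominator of the ratio, so the 2 facts are not independent. The smallest p this test can give is 0.00794.

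Several of the 5 genes had extremes in the same libraries, although TDO2 was highest in high replicate 5 and QPRT in high replicate 2. High replicate 3 had the lowest value of the 10 libraries for TDO2, KMO, KYNU and ACMSD and the second lowest for QPRT. Low replicate 4 had the highest for KMO, KYNU and ACMSD. These libraries also lay at the ends of the first principal component of the other 10926 tested genes, which held 42.9% of the variance, with scores of 37.1 for high replicate 3 and -40.5 for low replicate 4. Low replicate 2 and high replicate 1 scored 32.6 and 28.6, and the other 6 libraries between -18.2 and 0.953.

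**Figure D2:**
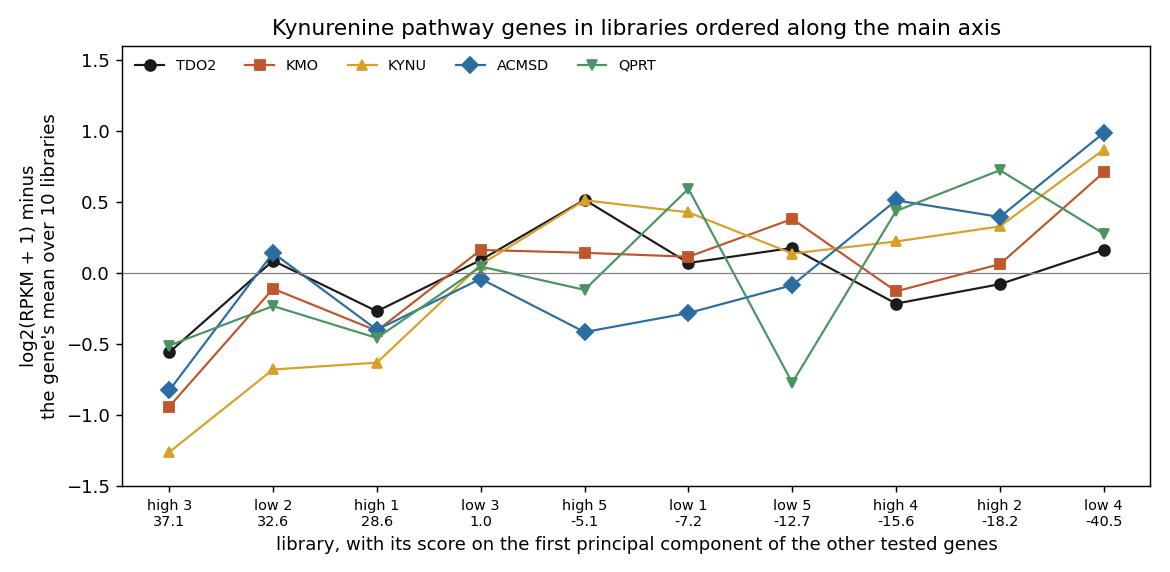
Deviation of log2(RPKM + 1) from each gene's mean over 10 libraries (vertical axis), with libraries ordered by their score on the first principal component of the other tested genes, printed under each name. Lines join the values of 1 gene. High replicate 3, with a score of 37.1, is the lowest library for TDO2, KMO, KYNU and ACMSD, and low replicate 4, with -40.5, the highest for KMO, KYNU and ACMSD.

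Over all 10 libraries KYNU had a Pearson r of -0.94 with the score (permutation p = 0.00018, adjusted p = 0.0027 over 15 relations) and a Spearman rho of -0.806 (permutation p = 0.00716, adjusted p = 0.107). KMO had an r of -0.833 (permutation p = 0.00214, adjusted p = 0.0107) and a rho of -0.576 (permutation p = 0.0877, adjusted p = 0.214). Without high replicate 3 and low replicate 2, the libraries farthest from the median score, r was -0.90 for KYNU and -0.815 for KMO, and without high replicates 1 and 5 it was -0.957 and -0.812. TDO2, ACMSD and QPRT did not pass, with r of -0.49, -0.729 and -0.567 (adjusted p = 0.0504 to 0.235 in the permutation test). The score was drawn from the same 10 libraries and held 42.9% of the variance of the other tested genes. The share of those genes that reach such an r was not computed, so the relation cannot be called particular to KYNU and KMO.

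High replicates 1 and 3 and low replicate 2 stood apart from the rest at the upper end of the score. The relations were therefore also computed within the other 7 libraries, which include low replicate 4 at the lower end. This subset was chosen after the scores were seen. It cuts off the upper end of the score, so a weaker relation within it does not tell whether the relation fails. There ACMSD had a Pearson r of -0.874 with the score (exact permutation p = 0.00893, adjusted p = 0.134 over 15 relations) and a Spearman rho of -0.75 (exact permutation p = 0.0663). Without low replicates 3 and 4, the 2 libraries farthest from the median score, the r of ACMSD was -0.936. KYNU had an r of -0.735 (exact permutation p = 0.0704, adjusted p = 0.528) and a rho of -0.429 (exact permutation p = 0.354). Without the same 2 libraries the r of KYNU was 0.677, so that its relation rested on them. Within these 7 libraries no relation to the score passed the adjustment.

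Among the members, TDO2 and KMO, whose steps lie before and after that of AFMID, varied together over all 10 libraries. Their Pearson r was 0.785 (permutation p = 0.00995, adjusted p = 0.0497 over 10 pairs) and their Spearman rho 0.879 (permutation p = 0.00155, adjusted p = 0.0155). Without high replicates 3 and 5, the libraries farthest from the median of TDO2, r was 0.805. KMO and KYNU had an r of 0.882 (permutation p = 0.00073, adjusted p = 0.0073) and a rho of 0.648 (permutation p = 0.0484, adjusted p = 0.213). Without high replicate 3 and low replicate 4 the r of KMO and KYNU was 0.652. Without high replicates 1 and 5, an alternative chosen after seeing the data, r was 0.904 for TDO2 and KMO and 0.879 for KMO and KYNU. The other 8 pairs did not pass, with adjusted p of 0.0753 or more for r in the permutation test. Neither pair reached the threshold within the 7 libraries other than high replicates 1 and 3 and low replicate 2. This subset was also chosen after seeing the data. There TDO2 and KMO had an r of 0.417 (exact permutation p = 0.337) and a rho of 0.75 (exact permutation p = 0.0663). KMO and KYNU had an r of 0.604 (exact permutation p = 0.151) and a rho of 0.143 (exact permutation p = 0.783). Without high replicates 4 and 5 the r of TDO2 and KMO was 0.741. Without high replicate 4 and low replicate 4 the r of KMO and KYNU was -0.518.

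**Figure D3:**
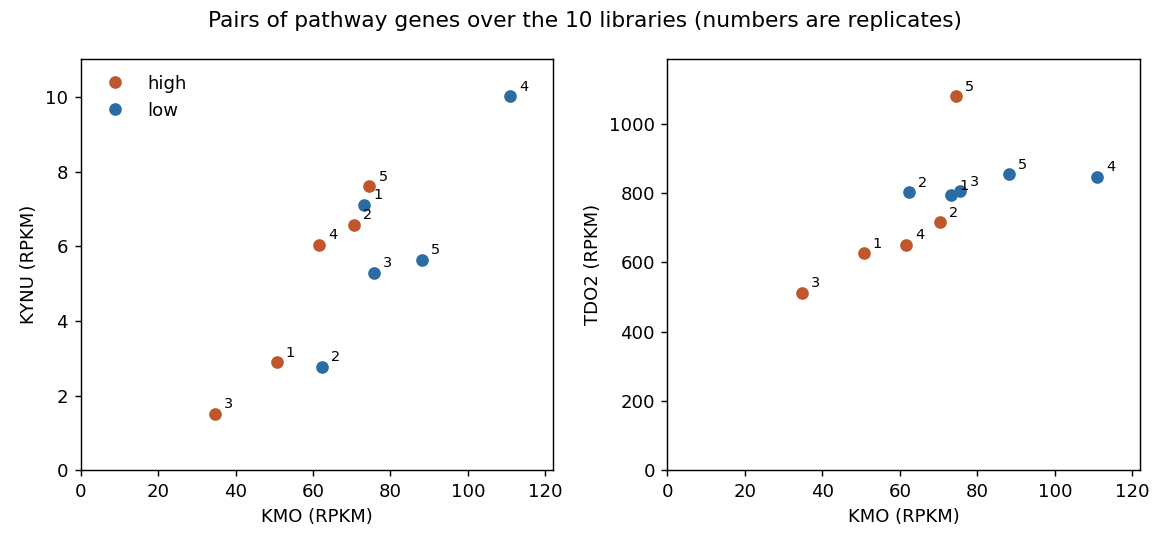
RPKM of KYNU (left) and of TDO2 (right) against RPKM of KMO in each library, on linear axes from 0, coloured by group and numbered by replicate. High replicate 3 is at the lower left in both panels, and high replicate 5 stands above the rest for TDO2 with 1081 RPKM.

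The mean level of 6 hepatocyte markers (ALB, APOB, TTR, TF, FGB and AHSG) moved with some members over the libraries. The markers themselves varied, with TTR at 696.5 to 5244 RPKM and FGB at 7802 to 30170 RPKM. Whether their mean level follows the number of hepatocytes or the RNA per cell cannot be told. KYNU had an r of 0.858 with this marker level (permutation p = 0.00157, adjusted p = 0.0107 over 15 relations) and a rho of 0.721 (permutation p = 0.0229, adjusted p = 0.114). KMO had an r of 0.825 (permutation p = 0.0038, adjusted p = 0.0142) and a rho of 0.697 (permutation p = 0.0305, adjusted p = 0.114). The marker level was lowest in high replicate 3, at 10.9 on the log2(RPKM + 1) scale, and highest in low replicate 5, at 12.0. Without these libraries r was 0.884 for KYNU and 0.595 for KMO, and without high replicates 1 and 5 it was 0.859 and 0.811. Within the same 7 libraries as before it was 0.193 (exact permutation p = 0.682) and 0.380 (exact permutation p = 0.406). With the level of the macrophage markers no member passed, at r of 0.288 to 0.481 (adjusted p = 0.235 to 0.42 in the permutation test). Between high and low the hepatocyte level was 11.5 ± 0.383 and 11.6 ± 0.318 (SD, n = 5 each; exact permutation p = 0.603). The part of these levels in the values of KMO and KYNU was not tested. The lowest hepatocyte levels were 10.9 in high replicate 3, 11.2 in low replicate 2 and 11.3 in high replicate 1. These are the libraries at the upper end of the principal component score, so the relations to the marker level and to the score were not separated.

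The genes most alike to each member were taken as the 3 with the highest Pearson r of log2(RPKM + 1) over the 10 libraries. For TDO2 these were CLEC4F, WASHC4 and GLUD1, with r of 0.922, 0.891 and 0.887. GLUD1 encodes glutamate dehydrogenase and had 174 to 372 RPKM. For KMO they were PKLR, the pyruvate kinase of liver, SLC7A7, a transporter of cationic amino acids, and RMDN1, with r of 0.957, 0.956 and 0.949.

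KYNU was nearest to THOC5, RIDA and DPYS, with r of 0.988, 0.984 and 0.982. DPYS, the dihydropyrimidinase of pyrimidine breakdown, ran from 10.9 to 211 RPKM. ACMSD was nearest to SLF1, CDKN2C and ANAPC4, with r of 0.907, 0.905 and 0.903, and QPRT to SLC22A18, BRD3 and RIN3, with r of 0.977, 0.974 and 0.972. No gene was named for more than 1 member. These are descriptions picked for their likeness among all tested genes with a symbol, and the libraries share the axis described above.

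Of 13 other genes of tryptophan use, 10 were matched and 7 tested, and none passed over all genes. Of these 7, 4 had the higher mean in high and 3 in low, where 51.2% of all tested genes were higher in low. Their median log2 difference was 0.04, and 1 of the 7 had an unadjusted p under 0.05 in limma, against 4.55% of all tested genes. That was INMT, which methylates tryptamine and related amines. It had 7.79, 22.5, 9.37, 21.1 and 39.9 RPKM in high replicates 1 to 5 and 38.7, 18.7, 59.7, 53.7 and 26.1 in low replicates 1 to 5. Low replicates 3 and 4 were highest and high replicates 1 and 3 lowest, with overlap between. Its log2 difference (high minus low) was -1.04 (SE 0.44, adjusted p = 0.961 in limma).

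The enzymes that compete for tryptophan or kynurenine were present at other levels than the members. IDO1, which does the work of TDO2 outside the liver, had 0.02 to 0.87 RPKM, and its relative IDO2 had 1.64 to 18.8, both far under the 513 RPKM that was the lowest value of TDO2. KYAT3 and KYAT1, which turn kynurenine into kynurenic acid, had medians of 36.2 and 20.1 RPKM, while AADAT, with the same activity, had at most 0.27. DDC, the aromatic amino acid decarboxylase, had means of 47.3 ± 5.34 RPKM (high) and 39.2 ± 11.7 RPKM (low; SD, n = 5 each; adjusted p = 0.961 in limma).

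Along the oxidative branch, ALDH8A1, which acts after ACMSD, had means of 31.4 ± 3.40 RPKM (high) and 30.8 ± 5.88 RPKM (low; SD, n = 5 each). GCDH, the glutaryl-CoA dehydrogenase that follows, had 64.5 ± 22.6 and 59.0 ± 18.1. Both were thus more abundant than ACMSD itself, which had at most 13.7 RPKM.

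**Figure D4:**
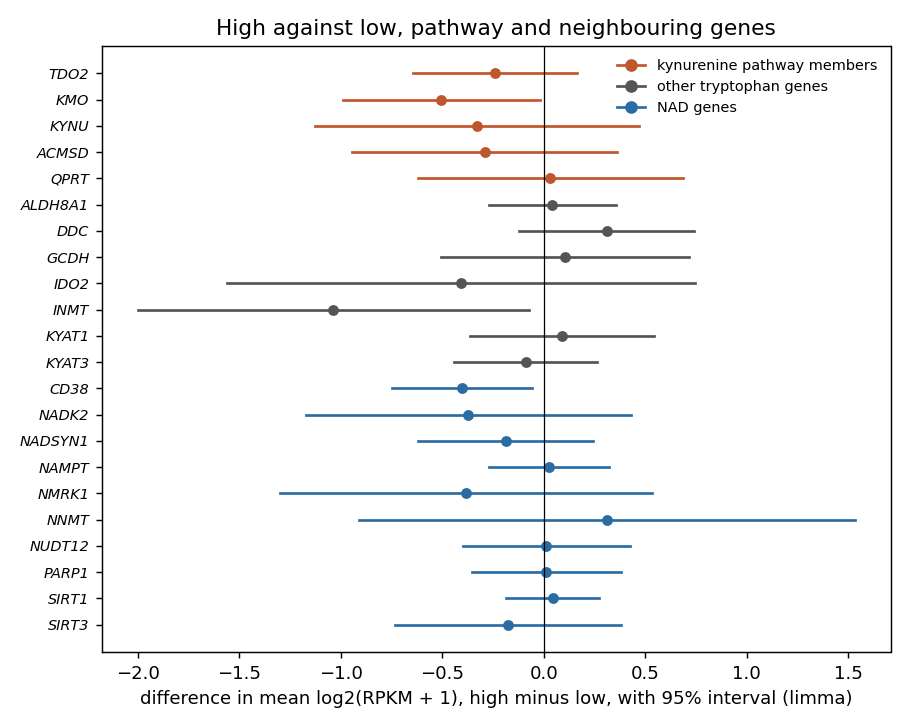
Difference in mean log2(RPKM + 1), high minus low (horizontal axis), for the 5 pathway members, 7 other tryptophan genes and 10 NAD genes, each with its 95% interval from limma. The intervals of KMO, INMT and CD38 lie to the left of 0 before adjustment, and no gene passed after it.

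The genes of NAD synthesis and use, on the far side of QPRT, likewise held no member that passed. Of 15 listed genes 12 were matched and 10 tested, 5 with the higher mean in each group, and the median log2 difference was -0.08. Among all tested genes 51.2% had the higher mean in low. In limma 1 of the 10 had an unadjusted p under 0.05, against 4.55% of all tested genes. CD38, which consumes NAD, had 0.72, 1.23, 0.55, 1.51 and 1.07 RPKM in high replicates 1 to 5 and 1.74, 2.24, 1.43, 1.67 and 1.17 in low replicates 1 to 5. Low replicates 1, 2 and 4 lay above all high libraries. The log2 difference of CD38 (high minus low) was -0.40 (SE 0.16, unadjusted p = 0.0253, adjusted p = 0.961 in limma).

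The other NAD genes named by rule did not come near the threshold. NADK2, the mitochondrial NAD kinase, ran from 10.1 to 35.1 RPKM in high and from 12.9 to 40.2 in low. NADSYN1, which completes NAD after QPRT, had 19.5 ± 3.70 and 22.8 ± 6.23. NMRK1, a kinase of nicotinamide riboside, had 17.1 ± 9.57 and 20.4 ± 6.57 (high and low, SD, n = 5 each, for both). Their adjusted p was 0.963 to 0.968 in limma.

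Kynurenine is a ligand of the aryl hydrocarbon receptor, and of 9 genes of that receptor and its targets 6 were tested. Of these, 5 had the higher mean in low, against 51.2% of all tested genes, and 1 in high. The median log2 difference was -0.20, and none had an unadjusted p under 0.05 in limma, against 4.55% of all tested genes. The target CYP1A2 ran from 2.46 to 52.9 RPKM in high and from 3.57 to 141 in low, and CYP1A1 from 0.06 to 1.66 and from 0.43 to 11.6. Low replicate 4 was the highest library for both, as it was for KMO, KYNU and ACMSD. The receptor AHR averaged 16.3 ± 6.39 RPKM (high) and 18.5 ± 3.62 RPKM (low), and its partner ARNT had 9.63 ± 2.03 and 10.8 ± 2.27 (SD, n = 5 each).

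Glucocorticoids induce TDO2 in rat liver, and 8 of 10 genes of their receptor and its targets were tested. On the log2(RPKM + 1) scale 6 of these had the higher mean in high, against 3 by mean RPKM. Among all tested genes 51.2% had the higher mean log2 value in low. The 8 genes had a median log2 difference of 0.05, and none had an unadjusted p under 0.05 in limma. The receptor gene NR3C1 averaged 7.11 ± 1.13 RPKM (high) and 5.79 ± 0.925 RPKM (low; SD, n = 5 each; adjusted p = 0.961 in limma). FKBP5, a chaperone cofactor of the receptor, had 17.2 to 109 RPKM over the libraries. HSD11B1, which makes active cortisol in liver, had 258 ± 65.4 and 298 ± 34.4, and the repressor ZBTB16 had 7.78 ± 3.17 and 6.37 ± 2.90.

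Interferon gamma induces IDO1, and 5 of 9 genes of that response were tested, 3 with the higher mean in high and a median log2 difference of 0.05. Among all tested genes 51.2% had the higher mean in low and 4.55% an unadjusted p under 0.05 in limma. IRF1, a transcription factor of the response, averaged 7.50 ± 2.29 RPKM (high) and 9.98 ± 0.970 RPKM (low; SD, n = 5 each), at an unadjusted p of 0.0398 and an adjusted p of 0.961 in limma. GBP2 had 2.52 ± 1.04 and 3.56 ± 1.32, and IFNGR1 differed by 0.10 on the log2 scale.

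Of 8 transporters of tryptophan and related amino acids 4 were tested, 3 with the higher mean in high and a median log2 difference of 0.16. SLC36A4 averaged 1.03 ± 0.270 RPKM (high) and 1.37 ± 0.198 RPKM (low; SD, n = 5 each; adjusted p = 0.961 in limma). SLC3A2, SLC7A8 and SLC43A2 differed by 0.15 to 0.21 on the log2 scale. Of 7 genes that supply heme or the vitamin cofactors 3 were tested, all with the higher mean in high and a median log2 difference of 0.12. ALAS1, the first enzyme of heme synthesis, had 153 ± 43.1 and 148 ± 66.1 RPKM, FECH had 15.1 ± 3.22 and 13.4 ± 1.92, and FLAD1 had 14.7 ± 2.18 and 14.2 ± 2.39. In both lists none had an unadjusted p under 0.05 in limma, against 4.55% of all tested genes. Among all tested genes 51.2% had the higher mean in low.

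The authors' deposited table gave a signed fold, positive where low was higher, of 1.12 for TDO2, 1.42 for KMO, 1.27 for KYNU, 1.24 for ACMSD and -1.04 for QPRT. The p-values in the authors' deposited table were 0.36, 0.05, 0.45, 0.5 and 0.89 in the same order. The file headers do not say which values the fold rests on.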

How the data were processed

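Per the labels' protocols, liver was frozen at slaughter, RNA had integrity numbers of 7.1 to 8.1, and TruSeq libraries were read in pairs of 75 bp. This kit marks no strand, so overlapping antisense genes cannot be separated. Per the submitters' processing notes the genome build was Sscrofa10.2, while the aligner, the counter and the annotation release were not stated. Per gene the authors deposited RPKM values, a signed fold score and a p-value, per the file headers. In 624 RPKM values the first of 2 dots was read as a digit-group mark. Symbols from a table of Ensembl names matched 11779 identifiers. No coordinates or sequences were used, because the reference given was Sscrofa11.1.

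Genes whose mean reached 1 RPKM were tested as log2(RPKM + 1), a scale that understates changes of low genes, with limma 3.58.1 in R 4.3.3 (eBayes with trend, two-sided, Benjamini-Hochberg over 10931 genes, threshold 0.05), all 10 libraries, no covariates. All 5 matched members passed the filter. The fit was tested on simulated data. Replicate numbers follow accession order. Ratios and marker levels were compared by exact permutation over 252 assignments, and correlations by 100000 permutations or, in 7 libraries, exactly. Depth in reads is unknown, so no counting interval is given. The members and lists were chosen with earlier results of these data known. Named genes are the members, up to 4 genes per list with the smallest p, and the 3 genes most alike to each member. A gene that the rule named is not reported here. Other genes were named for their role or after their values were seen. Alternatives changed the pseudocount, filter, scaling, moderation, covariate or libraries.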

Additional observations from a re-analysis of the deposited data

Results flagged for a closer look

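In low replicate 4 ACMSD had 13.69 RPKM, where the other low libraries had 5.10 to 7.18, a gap of 0.758 of the range of the group. The same library held the highest low value of 2 targets of the aryl hydrocarbon receptor, CYP1A1 at 11.57 RPKM, with 3.13 next, and CYP1A2 at 141.43 RPKM, with 41.8 next, gaps of 0.758 and 0.723. Each of these values stood far from the rest of its group on the RPKM scale. In all 3 of 70 groups of 5 libraries had such a value, where chance alone gives about 1 in 20 for normally distributed values. Gene values were checked as RPKM and not on the log2(RPKM + 1) scale of the tests. On that scale ACMSD had 3.88 in low replicate 4, where the other low libraries had 2.61 to 3.03.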

How the results depend on the processing

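No member passed under any of 17 alternatives each (smallest adjusted p = 0.645 in limma, for KMO without low replicate 2), and TDO2, KMO, KYNU and ACMSD kept the higher mean in low in all of them. Leaving out 1 library at a time gave log2 differences (high minus low) of -0.398 to -0.13 for TDO2, -0.604 to -0.334 for KMO, -0.539 to -0.0549 for KYNU and -0.456 to -0.0808 for ACMSD. QPRT changed sign without high replicate 2 (-0.144), high replicate 4 (-0.0726), low replicate 2 (-0.0207) or low replicate 5 (-0.156), in a range of -0.156 to 0.185. The other settings gave -0.402 to -0.187 for TDO2, -0.587 to -0.366 for KMO, -0.416 to -0.0714 for KYNU, -0.34 to -0.118 for ACMSD and 0.0209 to 0.235 for QPRT. With the first principal component as a covariate KMO had -0.366 (unadjusted p = 0.0123, adjusted p = 0.698 in limma). The log2 ratio of KMO to KYNU changed sign without high replicate 4 (0.0129), high replicate 5 (0.0277) or low replicate 2 (0.0829), in a range of -0.277 to 0.0829. The ratios of ACMSD to QPRT and of KMO to TDO2 kept their sign, at -0.661 to -0.223 and -0.358 to -0.17. The ratio of the SD of TDO2 in high to that in low ran from 4.15 to 9.57 with 1 library left out, an alternative chosen after seeing the data. The cause of these changes was not tested. With no gene lengths at hand, reads could not be recovered, so counting error is not known for KYNU and ACMSD, the members with the lowest values. No paired analysis was possible because the labels carry no replicate numbers that are shared between the groups.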

Other observations

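NNMT, which methylates the nicotinamide left when NAD is consumed, was chosen after its values were seen. It had 2458, 621, 2219, 880 and 1155 RPKM in high replicates 1 to 5 and 885, 2321, 1344, 278 and 1518 in low replicates 1 to 5. High replicates 1 and 3 and low replicate 2, the libraries with the most NNMT, were those with the least KYNU, and low replicate 4, with the least NNMT, had the most KYNU. The same libraries lay at the ends of the first principal component of the other tested genes, and the relation of NNMT to KYNU was not tested. NNMT did not pass the test between high and low (log2 difference 0.31, SE 0.56, adjusted p = 0.975 in limma).

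TAT, the tyrosine aminotransferase that glucocorticoids induce together with TDO2 in rat liver, was also chosen after its values were seen. It had its highest values in low replicate 2, at 1173 RPKM, and in high replicate 3, at 896 RPKM, the library with the lowest TDO2. In low replicate 2, with the most TAT, TDO2 had 803 RPKM, near its median of 799 over the 10 libraries. In low replicates 4 and 5 TAT had its 2 lowest values, 346 and 303 RPKM, while TDO2 had 847 and 855 RPKM there. The relation of TAT to TDO2 over the libraries was not tested.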
